A study of Homo sapiens with 6 samples.

Results

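The replication-dependent histone genes were taken as all probes whose gene name in the scanner files began with HIST1H, HIST2H, HIST3H or HIST4H. These were 85 probes for 69 gene names, out of 58201 probes and 43317 gene names on the array. The names are those of the array design, and a current symbol was found for all 69. The cells were BT474, an established luminal breast cancer line that is positive for the estrogen receptor and carries amplified HER2 (ERBB2). They had been stably transfected with an empty pcDNA3.1 plasmid (Control, labelled MOCK), with the long variant 1 of the long non-coding RNA NR2F1-AS1 in pcDNA3.1/Hygro(+) (BT474-Var1), or with its short variant 4 in pcDNA3.1-P2A-eGFP (BT474-Var4). All 3 groups were grown in RPMI-1640 with fetal bovine serum, and each was represented by 2 single-colour arrays, A and B. The plasmids differ in more than the insert, and the groups consist of cells that survived selection for a stably held plasmid. Nothing in the sources says that A and B were separate cultures, so the p-values measure only the spread between these arrays.

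Histones package DNA in nucleosomes, each built from the core types H2A, H2B, H3 and H4, and the linker histone H1 binds the DNA between nucleosomes. The replication-dependent genes lie in clusters, lack introns and are transcribed in S phase, when new DNA has to be packaged. Their mRNAs end in a conserved stem-loop in place of a poly(A) tail, and the stem-loop is bound by SLBP, which directs 3′ end processing and translation. Some of these genes can also use a poly(A) signal downstream of the stem-loop, which yields a polyadenylated mRNA outside S phase. The labelling kit copied RNA with an oligo-dT primer, so the signal of a histone probe reflects the share of its mRNA that this primer can copy together with its amount.

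The letters of the stem-loop and of the poly(A) signal were searched in the probes, and the stretches below show matches in probes whose values are described further on. The histone stem-loop, searched on the probe strand with 2 free bases in each arm of the stem and 1 in the loop, was present in 6 of the 85 histone probes and in 7 of all 58201 probes (0.0120%). The windows are 30 bases of the probe, 5′ to 3′, in hg19, with the stem-loop in capitals.
HIST1H2BE, chr6:26184429-26184458, plus strand: aaacccaaaGGCTCTTTTCAGAGCCactca
HIST1H2AI, chr6:27776416-27776445, plus strand: ggaaccaaaGGCTCTTTTCAGAGCCaccta
HIST1H4K, chr6:27798954-27798983, minus strand: ctatcaacaaaaGGCCCTTTTTAGGGCCcc
HIST2H3A, chr1:149824656-149824685, plus strand: cgtatccaaaaGGCTCTTTTCAGAGCCacc
The poly(A) signal AATAAA was present in 6 histone probes (7.06%) and in 7.85% of all probes, so it was no more frequent in histone probes. Each copy of it is in capitals in the following probes, of which those for HIST1H4H and HIST2H2BF lie far downstream of another probe of the gene.
HIST1H4H, chr6:26281301-26281330, minus strand: ccacagatttccAATAAAaggtgAATAAAa
HIST2H2BF, chr1:149397127-149397156, minus strand: tttcttttgccaAATAAAatatacccttgg
HIST1H4J, chr6:27792206-27792235, plus strand: ggtggttgagcgtccctttctatcAATAAA
A match of these letters describes the probe and does not show how the mRNA it bound had ended. The HIST1H4J probe matches the stem-loop probe of HIST1H4K at 40 of 41 aligned bases. Its AATAAA is therefore not read as a downstream poly(A) signal.

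The arrays were alike in depth. Between 47.6% and 57.5% of probes were well above background on an array, no spot was saturated, and the arrays of a group correlated at 0.993 to 0.996 over the tested probes. A level here is the log2 processed signal minus the 75th percentile of its array, so 0 is that percentile, and a difference of 1 is a change of 2-fold. All 10 luminal markers, ERBB2 and ESR1 among them, were well above background on all 6 arrays. Of 6 fibroblast markers, COL1A2, COL3A1 and LUM were well above background on no array. DCN was well above background on the BT474-Var4 arrays alone, at least 7.11-fold higher than in Control (limma adjusted p = 0.0125), and COL1A1 rose by 1.03 there. PDGFRB, the remaining tested marker of this list, differed by -0.32 in BT474-Var4 and was not called. With normexp background correction, 1 marker of the list was called lower in BT474-Var4. The summed log2 level of the fibroblast list was 1.64 to 1.66 in Control, 1.88 to 1.93 in BT474-Var1 and 2.47 to 2.51 in BT474-Var4. The leukocyte list lay at 0.31 to 0.38, 0.39 to 0.42 and 0.18 to 0.29. The part of these markers in the histone values was not tested. Both BT474-Var1 arrays lay on one side of the slide and the other arrays on the other side, so slide side and BT474-Var1 cannot be told apart, whereas BT474-Var4 and Control shared a side.

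Histone cluster genes were lower in both variant lines than in Control, by amounts that were mostly below 2-fold. Of the 85 probes, 79 probes for 65 genes passed the filter on dim signals and were tested together with all 31858 tested probes. In BT474-Var1, 43 of the 79 were lower than in Control at an adjusted p under 0.05 (limma, Benjamini-Hochberg) and 3 were higher, where 20.3% of all tested probes were lower and 14.1% higher. In BT474-Var4, 42 were lower and 4 higher, where 14.3% of all tested probes were lower and 9.87% higher. Histone probes were bright, with 77 well above background on all 6 arrays, and among all probes of that kind 23.0% were lower in BT474-Var1 and 14.7% in BT474-Var4. The median difference over the 65 genes, each represented by its brightest probe, was -0.29 in BT474-Var1 and -0.36 in BT474-Var4, and the medians over all tested genes were -0.05 and -0.08. In these bulk samples, fewer cells in S phase, less histone mRNA per cell and a smaller share of it that the primer can copy cannot be told apart.

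The lower level was seen on every array. Relative to the Control mean, the median over histone genes was -0.31 on BT474-Var1 A, -0.32 on BT474-Var1 B, -0.32 on BT474-Var4 A and -0.36 on BT474-Var4 B, and the medians over all tested genes lay between -0.09 and -0.05. A change of at least 2-fold was rare. With that added requirement, 4 probes were lower and 1 higher in BT474-Var1, where 1.16% of all tested probes were lower and 2.78% higher, and 1 was lower and 3 were higher in BT474-Var4, where 1.57% were lower and 1.6% higher. The counts also rested on having all 4 arrays of a comparison. In BT474-Var1 the count of lower probes was 15 without Control A, 18 without Control B, 22 without BT474-Var1 A and 21 without BT474-Var1 B. In BT474-Var4 it was 4 without Control A, 6 without Control B, 18 without BT474-Var4 A and 10 without BT474-Var4 B. No called difference changed its sign when an array was left out.

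The variant lines also differed from each other. Between BT474-Var4 and BT474-Var1, 25 histone probes were higher in BT474-Var4 and 15 lower, where 20.4% of all tested probes were higher and 20.8% lower, and 23.3% of those above background on all arrays were higher. With the 2-fold requirement, none was higher and 2 were lower, where 2.27% and 4.6% of all tested probes were. The higher probes were unevenly spread over the types, with 13 of 25 for H2B genes, which make up 19 of the 79 tested probes. Without 1 array, 13 to 16 probes were higher when that array was BT474-Var1 A, BT474-Var1 B, BT474-Var4 A or BT474-Var4 B, and 17 without either Control array. The count of lower probes was 4 without BT474-Var1 A, 7 without BT474-Var1 B, 10 without BT474-Var4 A and 7 without BT474-Var4 B.

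**Figure D1:**
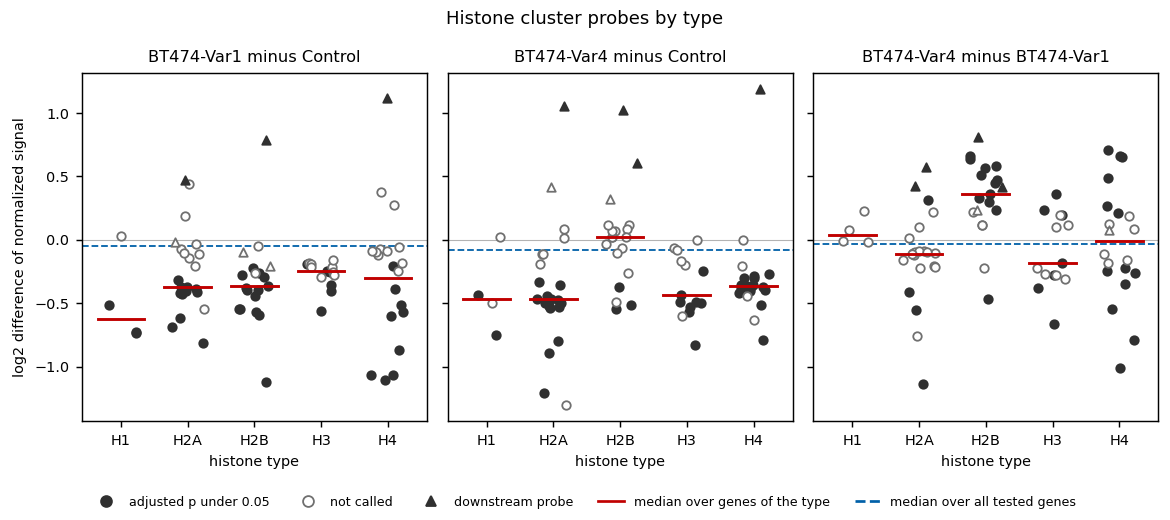
Difference in level (log2) of each tested histone probe, by histone type, for each variant line against Control and for BT474-Var4 against the other line. Filled points have an adjusted p under 0.05, triangles are probes lying 1000 bases or more downstream of another probe of the same gene, the red bar is the median over the genes of a type and the dashed blue line is the median over all tested genes. The H2B median lay at -0.37 in BT474-Var1 and at 0.03 in BT474-Var4, and the medians of the other types were below the dashed line in both.

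The linker histone genes were among the most reduced, with 1 exception. HIST1H1D (H1-3) read 5.41 and 5.35 in Control, 4.65 and 4.64 in BT474-Var1 and 4.65 and 4.62 in BT474-Var4. Both variant lines lay below Control without overlap, by -0.74 ± 0.05 (SE, adjusted p = 0.00379) and -0.75 ± 0.05 (adjusted p = 0.00428), and these limma calls held with any array left out. HIST1H1E (H1-4) read 5.57 and 5.48, then 5.02 and 5.00, then 5.20 and 4.98 on the same arrays, and fell by 0.52 (BT474-Var1, adjusted p = 0.0174) and 0.43 (BT474-Var4, adjusted p = 0.0356). HIST1H1B (H1-5) fell by 0.73 in BT474-Var1 (adjusted p = 0.0162) and differed by -0.50 in BT474-Var4 (adjusted p = 0.0532). The BT474-Var1 calls of HIST1H1E and HIST1H1B were lost without either Control array or either BT474-Var1 array, and the BT474-Var4 call of HIST1H1E without any array but BT474-Var4 A.

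HIST1H1C (H1-2), the linker histone known to be made also as a polyadenylated mRNA, behaved differently from these. It read 5.49 and 5.48 in Control, 5.56 and 5.46 in BT474-Var1 and 5.54 and 5.47 in BT474-Var4, so the 3 groups overlapped. The differences were 0.03 (adjusted p = 0.756) and 0.02 (adjusted p = 0.836). The probes of HIST1H1A and of the testis gene HIST1H1T were too dim to be tested. No H1 probe passed the test between BT474-Var4 and BT474-Var1.

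H2A genes were lower in both lines. Of 22 tested probes, 11 were lower and 1 higher in BT474-Var1, where 20.3% of all tested probes were lower and 14.1% higher. In BT474-Var4, 14 were lower and 1 higher, where 14.3% and 9.87% of all tested probes were. The medians over 17 genes were -0.37 and -0.47. The brightest, HIST1H2AJ (H2AC14), read 7.53 and 7.54 in Control, 7.22 and 7.08 in BT474-Var1 and 7.003 and 7.08 in BT474-Var4. Its Control arrays stood above the other 4, and it fell by 0.39 (adjusted p = 0.0177) and 0.49 (adjusted p = 0.0149). Its probe matches that of HIST1H2AK at 51 of 58 aligned bases (87.9%), so the signals of these genes may not be separate. Between the lines, 3 H2A probes were higher and 3 lower in BT474-Var4 (13.6% each), where 20.4% and 20.8% of all tested probes were. The count of 11 was 2 without Control A or Control B, 6 without BT474-Var1 A and 4 without BT474-Var1 B. The count of 14 was 2 without Control A, 3 without Control B, 9 without BT474-Var4 A and 6 without BT474-Var4 B.

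The largest H2A falls were found in single genes. The upstream HIST1H2AI (H2AC13) probe read 0.19 and 0.23 in Control, -0.74 and -0.46 in BT474-Var1 and -0.67 and -0.51 in BT474-Var4, that is -0.81 (adjusted p = 0.0104) and -0.80 (adjusted p = 0.0157). The HIST1H2AI probe that holds the stem-loop differed by -0.37 and -0.47, also called lower in both lines. HIST1H2AL (H2AC16) read 2.07 and 2.03 in Control, 1.36 on BT474-Var1 B and 1.19 and 1.12 in BT474-Var4, and its spot on BT474-Var1 A was left out as an outlier. It differed by -0.69 in BT474-Var1 (adjusted p = 0.0101), a value from 1 array that is assumed to vary like those of the other groups, and fell by 0.89 in BT474-Var4 (adjusted p = 0.00712). The deposited normalised table keeps that spot, at 5.81, and with it the BT474-Var1 difference was 1.53 and was not called (adjusted p = 0.468).

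HIST1H2AG (H2AC11) was the clearest case of a gene with an upstream probe lowered in BT474-Var4 alone. Its downstream probe, described below, did not fall there, at 0.41 against Control (not called). Its upstream probe (chr6:27101247-27101306, plus strand) read 3.04 and 2.97 in Control, 2.98 and 2.89 in BT474-Var1 and 1.91 and 1.69 in BT474-Var4. BT474-Var4 lay below the other arrays by more than 2-fold, at -1.21 ± 0.09 against Control (adjusted p = 0.00516) and -1.14 against BT474-Var1 (adjusted p = 0.00272). BT474-Var1 overlapped Control, with a difference of -0.07 (adjusted p = 0.608). HIST1H2AA (H2AC1), a testis gene, differed by -0.55 between BT474-Var4 and BT474-Var1 (adjusted p = 0.0338), a call lost without any of the 4 arrays of these lines. The pseudogene HIST1H2APS1 was dim, and its differences of -0.54 and -1.30 against Control did not pass the test.

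H2B genes were lower in BT474-Var1 and, for the most part, not in BT474-Var4. Of 19 tested probes, 14 were lower and 1 higher in BT474-Var1, where 20.3% of all tested probes were lower and 14.1% higher. In BT474-Var4, 3 were lower and 2 higher (15.8% and 10.5%), near the 14.3% and 9.87% of all tested probes. Tested directly between the lines, 13 of the 19 were higher in BT474-Var4 and 1 was lower, where 20.4% and 20.8% of all tested probes were. The median over 17 H2B genes relative to Control was -0.36 on BT474-Var1 A and -0.37 on BT474-Var1 B, but 0.06 on BT474-Var4 A and 0.02 on BT474-Var4 B. Under quantile normalisation, normexp background correction and the deposited table, the BT474-Var4 median over these probes stayed between 0.02 and 0.05. The count of 14 lower in BT474-Var1 was 4 without Control A and 6 without Control B, BT474-Var1 A or BT474-Var1 B. The count of 13 higher between the lines was 8 without BT474-Var1 A or BT474-Var1 B and 9 to 11 without any other array. Under quantile normalisation these counts were 9 and 10, and with no filter on dim probes 4 and 6.

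Single H2B genes followed the same order. HIST1H2BM (H2BC14) read 4.59 and 4.53 in Control, 4.01 and 4.02 in BT474-Var1 and 4.71 and 4.64 in BT474-Var4. HIST1H2BI (H2BC10) read 4.68 and 4.64 in Control, 4.14 and 4.04 in BT474-Var1 and 4.72 and 4.74 in BT474-Var4. In both genes the BT474-Var1 arrays were the lowest and BT474-Var4 lay at or just above Control. HIST1H2BM differed by -0.54 in BT474-Var1 (adjusted p = 0.00558), by 0.12 in BT474-Var4 (adjusted p = 0.183) and by 0.66 between the lines (adjusted p = 0.00271). HIST1H2BI differed by -0.57 (adjusted p = 0.00566) and 0.07 (adjusted p = 0.398) from Control, and by 0.64 between the lines (adjusted p = 0.00318). The brightest H2B gene, HIST1H2BL (H2BC13), had smaller differences of the same order, at -0.29 (adjusted p = 0.0221) and 0.07 (adjusted p = 0.434) against Control, with 0.36 between the lines (adjusted p = 0.0111).

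HIST1H2BE (H2BC6), whose probe holds the stem-loop printed above, was the H2B gene with the largest fall. It read 2.74 and 2.83 in Control, 1.73 and 1.59 in BT474-Var1 and 2.27 and 2.21 in BT474-Var4. The 3 groups were fully separated, at -1.12 ± 0.08 (BT474-Var1, adjusted p = 0.00371) and -0.54 (BT474-Var4, adjusted p = 0.0149), with 0.58 between the lines (adjusted p = 0.00722). HIST1H2BF (H2BC7), whose probe also holds the stem-loop, was lower in both lines too, by 0.59 and 0.37 on the log2 scale. The BT474-Var1 calls of HIST1H2BE, HIST1H2BI, HIST1H2BK and HIST1H2BM held with any array left out, and those of the other 10 H2B probes did not.

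The promoters of H2A and H2B genes share an element, the octamer ATTTGCAT, which is bound by POU domain factors such as OCT1 (POU2F1). Promoters of 62 of the histone genes were found in the RefSeq table (GRCh38.p14, 250 bases before to 50 after the start), and both strands were searched. The octamer was present in 14 of 18 H2B and 11 of 15 H2A promoters, in 1 of 11 H3 promoters and in no H1 or H4 promoter, against 1.80% of all 27305 promoters. An AC box, AAACACA, was present in all 6 H1 promoters against 5.76% of all promoters, and GGTCCG, part of an H4 subtype element, in 11 of 12 H4 promoters against 11.2%. None of these motifs contains another. A match is a description of the letters and not evidence of binding. POU2F1 itself, named after its values were seen, read 2.71 and 2.67 in Control, 2.20 and 2.15 in BT474-Var1 and 2.50 and 2.47 in BT474-Var4. It fell by 0.51 in BT474-Var1 (adjusted p = 0.00576), differed by -0.20 in BT474-Var4 (adjusted p = 0.0549) and by 0.31 between the lines (adjusted p = 0.0135). Although both types often have the octamer, their medians differed. In BT474-Var4 against Control they were -0.47 for H2A and 0.03 for H2B genes, and between the lines -0.11 and 0.36. Among tested H2B genes with the octamer, only HIST1H2BJ had a negative difference between the lines, at -0.22 (-0.49 in BT474-Var4, neither called). Any part of the octamer or of POU2F1 in the H2B values was not tested. The stretches shown are a selection from H2B genes with a positive difference between the lines, 30 bases, 5′ to 3′, with the octamer in capitals.
HIST1H2BC, GRCh38.p14 chr6:26124031-26124060, minus strand: tttcatacctcATTTGCATagctctgccca
HIST1H2BI, GRCh38.p14 chr6:26272875-26272904, plus strand: cagccagcctcATTTGCATatacacgaggt
HIST1H2BM, GRCh38.p14 chr6:27814963-27814992, plus strand: ttctactcctaATTTGCATaataacattta
HIST2H2BE, GRCh38.p14 chr1:149886710-149886739, minus strand: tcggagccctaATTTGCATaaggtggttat

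Many H2A and H2B genes are arranged head to head with a shared promoter region. In the RefSeq table, 10 such pairs with both genes tested had starts 192 to 246 bases apart. This grouping was chosen after the values were seen and carries no test of its own. Against Control, the H2B gene's difference lay above its H2A partner's in 4 of 10 pairs in BT474-Var1 (median -0.06) and in 8 of 10 pairs in BT474-Var4 (median 0.49). Between the lines it lay above in 9 of 10 pairs (median 0.45). In BT474-Var4, HIST1H2AC differed by -0.53 and HIST1H2BC by 0.12, and HIST1H2AJ by -0.49 and HIST1H2BM by 0.12. The exceptions were HIST1H2AD and HIST1H2BF, at -0.36 and -0.37, and HIST3H2A and HIST3H2BB, at 0.01 and -0.26. The pairs are not independent replicates, and each gene is represented by its brightest probe, which for HIST2H2BE is a downstream probe.

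**Figure D2:**
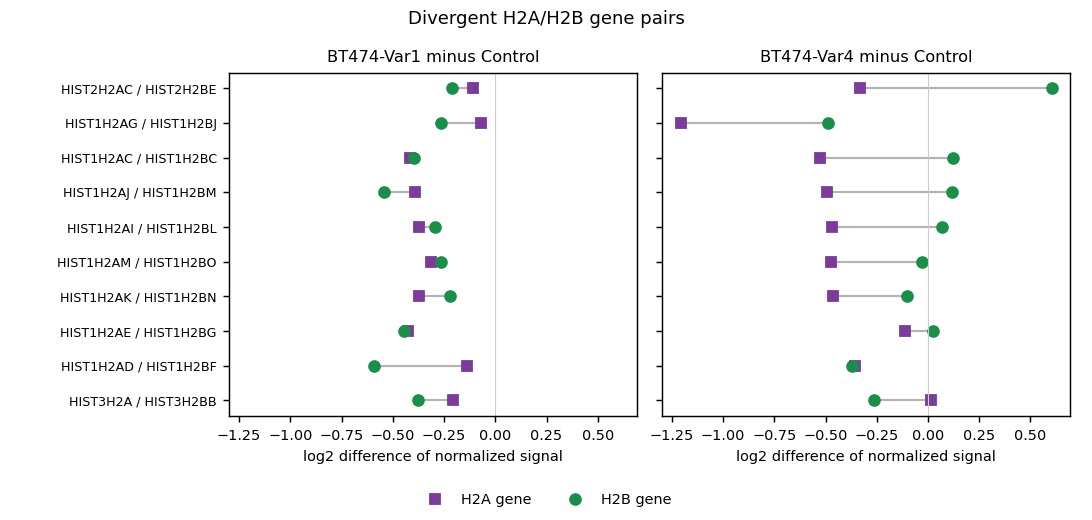
Differences in level (log2) of the 10 head-to-head H2A/H2B pairs, with the H2A gene and the H2B gene of a pair joined by a line, for each variant line against Control. In BT474-Var4 against Control the H2B point lay to the right of the H2A point in 8 of the 10 pairs, and in BT474-Var1 against Control in 4.

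H3 genes were lower in both lines. Of 14 tested probes, 6 were lower in BT474-Var1 and 8 in BT474-Var4, and none was higher, where 20.3% and 14.3% of all tested probes were lower. The medians over 13 genes were -0.25 and -0.43. In BT474-Var1 the count was 2 under quantile normalisation, 14 with normexp, 1 without Control A, 2 without Control B, 2 without BT474-Var1 A and 3 without BT474-Var1 B or either BT474-Var4 array. In BT474-Var4 it was 1 without Control A, Control B or BT474-Var4 B and 5 without any other array. HIST1H3A (H3C1) differed from Control by -0.56 (BT474-Var1, adjusted p = 0.00577) and -0.20 (BT474-Var4, not called), and by 0.36 between the lines (adjusted p = 0.011).

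HIST2H3A (H3C15), one of the H3 genes of the chromosome 1 cluster, had the opposite order. Its probe, which lists accessions of 2 RefSeq genes and holds the stem-loop, read 5.59 and 5.53 in Control, 5.43 and 5.37 in BT474-Var1 and 4.71 and 4.76 in BT474-Var4. Only the BT474-Var4 arrays stood clearly apart, at -0.83 ± 0.06 (adjusted p = 0.00414), and the fall held with any array left out. BT474-Var1 differed by -0.16 (adjusted p = 0.09), and the lines differed by -0.67 (adjusted p = 0.00281). HIST3H3 (H3-4), the brightest H3 probe, read 8.65 on both Control arrays, 8.50 and 8.45 in BT474-Var1 and 8.59 and 8.56 in BT474-Var4. Its differences of -0.18 (adjusted p = 0.0547) and -0.08 (adjusted p = 0.305) did not pass. The HIST3H3 probe matches that of HIST1H3C at 44 of 55 aligned bases (80.0%). Which H3 mRNAs gave its signal was not tested.

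The H4 genes encode the same protein or nearly so, yet their probes did not move together. Of 20 tested probes, 9 were lower and 1 higher in BT474-Var1, where 20.3% of all tested probes were lower and 14.1% higher. In BT474-Var4, 15 were lower and 1 higher, where 14.3% and 9.87% of all tested probes were. The medians over 14 genes were -0.30 and -0.37. Between the lines 6 probes were higher and 7 lower in BT474-Var4, where 20.4% and 20.8% of all tested probes were. The count of 15 was 0 without Control A or Control B, 2 without BT474-Var4 A, 1 without BT474-Var4 B, 0 with no filter on dim probes and 8 with the replicate block, whereas the count of 9 in BT474-Var1 was 7 or 8 without any 1 array. The brightest H4 probe, for HIST1H4C (H4C3), read 9.83 and 9.86 in Control, 9.78 and 9.77 in BT474-Var1 and 9.56 on both BT474-Var4 arrays. It was lower in BT474-Var4 by 0.29 on the log2 scale (adjusted p = 0.0208) and differed by -0.07 in BT474-Var1 (adjusted p = 0.321).

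A group of H4 genes was lowered more in BT474-Var1 than in BT474-Var4. HIST1H4J (H4C11; chr6:27792176-27792235, plus strand) read 6.29 and 6.21 in Control, 5.15 and 5.22 in BT474-Var1 and 5.84 and 5.83 in BT474-Var4. Its neighbour HIST1H4K (H4C12; chr6:27798954-27799013, minus strand) read 6.25 and 6.18, 5.15 and 5.15, and 5.77 and 5.95 on the same arrays. Both genes were lowest in BT474-Var1 and intermediate in BT474-Var4, with no overlap between the groups. HIST1H4J differed by -1.07 ± 0.06 (BT474-Var1, adjusted p = 0.00304) and -0.42 (BT474-Var4, adjusted p = 0.015) from Control, and by 0.65 between the lines (adjusted p = 0.00319). HIST1H4K differed by -1.07 ± 0.08 (adjusted p = 0.00389) and -0.36 (adjusted p = 0.0393) from Control, and by 0.71 between the lines (adjusted p = 0.00478). These probes match at 40 of 41 aligned bases (97.6%), so they can share target mRNAs and are not separate evidence.

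HIST1H4F, HIST1H4G and HIST2H4B had the same order. HIST1H4F (H4C6) read 4.20 and 4.08 in Control, 3.31 and 3.24 in BT474-Var1 and 3.74 and 3.79 in BT474-Var4, at -0.87 (adjusted p = 0.00413) and -0.38 (adjusted p = 0.0246). HIST1H4G (H4C7) read 0.11 and -0.14, then -1.25 and -0.98, then -0.39 and -0.52, at -1.10 (adjusted p = 0.00777) and -0.44 (adjusted p = 0.0799). HIST2H4B (H4C15) differed by -0.57 (adjusted p = 0.00733) and -0.30 (adjusted p = 0.0407). In each of these genes BT474-Var4 lay above BT474-Var1, by 0.49 (adjusted p = 0.00785), 0.66 (adjusted p = 0.0213) and 0.27 (adjusted p = 0.0369).

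Other H4 genes were lower in BT474-Var4 than in BT474-Var1. One HIST1H4A (H4C1) probe differed by -0.79 in BT474-Var4 (adjusted p = 0.00916) and by -0.24 in BT474-Var1, which did not pass, and by -0.54 between the lines (adjusted p = 0.0111). HIST1H4L (H4C13) read 0.49 on both Control arrays, 0.73 and 0.80 in BT474-Var1 and 0.07 and -0.12 in BT474-Var4. It was lower in BT474-Var4 than in Control by 0.51 on the log2 scale (adjusted p = 0.0181) and than in BT474-Var1 by 0.79 (adjusted p = 0.00401). The second HIST1H4L probe passed in no comparison. HIST4H4 (H4C16), the lone gene of the chromosome 12 locus, read -1.21 and -1.33 in Control, -0.74 and -1.04 in BT474-Var1 and -2.10 and -1.70 in BT474-Var4. It differed by -1.01 between the lines (adjusted p = 0.0137), a call lost without BT474-Var1 A (adjusted p = 0.057).

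The H4 probes bind mRNAs of one protein, and the same 22 bases of coding sequence could be read in 6 of them. They are printed 5′ to 3′ in hg19, with capitals where a base differs from the stretch that HIST1H4H, HIST1H4I and HIST1H4K share.
HIST1H4F, chr6:26240829-26240850, plus strand: tTaaggtgttcctggagaaTgt
HIST1H4H, chr6:26285531-26285552, minus strand: tgaaggtgttcctggagaacgt
HIST1H4I, chr6:27107263-27107284, plus strand: tgaaggtgttcctggagaacgt
HIST1H4K (second probe), chr6:27799109-27799130, minus strand: tgaaggtgttcctggagaacgt
HIST1H4L, chr6:27841092-27841113, minus strand: tTaaAgtgttTTtggagaaTgt
HIST2H4B, chr1:149804424-149804445, plus strand: tgaaggtgttcctggagaaTgt
HIST1H4H, HIST1H4I and the second HIST1H4K probe, identical here, differed from Control by -0.39, -0.51 and -0.60 in BT474-Var1 and by -0.30, -0.39 and -0.39 in BT474-Var4. Against the shared stretch HIST1H4L has 5 differing bases and HIST1H4F 2, and their differences in BT474-Var1 were 0.27 and -0.87. Over whole probes, 5 of the 85 matched a probe of another histone gene at 90% or more of at least 40 aligned bases. These were 2 for H2B and 3 for H4 genes, and 6 probes listed accessions of more than 1 RefSeq gene. Just below that limit were HIST1H3F with HIST1H3H (89.5%) and HIST1H2AD with HIST1H2AK (88.3%). Probes were compared only with each other and not with other histone mRNAs, so these counts do not measure shared binding.

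In the main setting, only probes placed far downstream of another probe of their gene were called higher than in Control. With normexp background correction, 3 H4 probes were called higher in BT474-Var1. With an intensity trend, or with probes above background on all arrays, 2 were. These include other probes, because HIST1H4H alone among the H4 genes had a downstream probe. For 6 genes a probe lay 1000 bases or more downstream of another probe of the gene, a definition chosen after the values were seen. Of these 6 probes, 3 were higher in BT474-Var1 and 4 in BT474-Var4, and none was lower. Of the other 73 tested histone probes, none was higher in either line, while 43 were lower in BT474-Var1 and 42 in BT474-Var4. In the scanner files all of these probes carry the gene's name, and which transcript the downstream probes bind was not tested.

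HIST1H4H (H4C8), the H4 gene known to give a polyadenylated mRNA, showed the largest contrast in BT474-Var1 among the genes with both probes tested. Its downstream probe (chr6:26281286-26281345, minus strand), 4211 bases beyond the upstream one and holding the AATAAA printed above, read 2.59 and 2.52 in Control, 3.70 and 3.64 in BT474-Var1 and 3.76 and 3.73 in BT474-Var4. The upstream probe (chr6:26285497-26285556) read 5.56 and 5.49 in Control, 5.15 and 5.13 in BT474-Var1 and 5.19 and 5.27 in BT474-Var4. The downstream probe was thus higher and the upstream probe lower on every variant array than on every Control array. The downstream probe rose by 1.12 ± 0.06 (2.17-fold, adjusted p = 0.00292) and 1.19 ± 0.06 (2.29-fold, adjusted p = 0.00293), and the upstream probe fell by 0.39 ± 0.06 (adjusted p = 0.0115) and 0.30 ± 0.06 (adjusted p = 0.0287). The calls of the downstream probe held with any array left out.

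HIST1H2AC (H2AC6) had the same arrangement, with more rise in BT474-Var4. The downstream probe (chr6:26138822-26138881, plus strand), 14419 bases beyond the first upstream one, read 1.25 and 1.26 in Control, 1.81 and 1.65 in BT474-Var1 and 2.27 and 2.33 in BT474-Var4. It rose by 0.47 ± 0.07 in BT474-Var1 (adjusted p = 0.0123), a call lost without Control A (adjusted p = 0.0678) or Control B (adjusted p = 0.0642), and by 1.05 ± 0.07 in BT474-Var4 (adjusted p = 0.00428). The brighter upstream probe read 3.64 and 3.56 in Control, 3.20 and 3.16 in BT474-Var1 and 3.18 and 2.96 in BT474-Var4. That probe lay lower in both lines, at -0.42 ± 0.09 (adjusted p = 0.0296) and -0.53 ± 0.09 (adjusted p = 0.0233). The dimmer upstream probe differed by -0.03 (adjusted p = 0.742) and -0.44 (adjusted p = 0.0148).

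The H2B genes of the chromosome 1 cluster had downstream probes too. The HIST2H2BF (H2BC18) downstream probe (chr1:149397120-149397179, minus strand), which holds AATAAA, read -3.96 and -3.82 in Control, -3.09 and -3.11 in BT474-Var1 and -2.81 and -2.92 in BT474-Var4. These are low signals, but the groups did not overlap, and it rose by 0.79 ± 0.08 (adjusted p = 0.00529) and 1.02 ± 0.08 (adjusted p = 0.00489). With normexp background correction, which compresses low signals, the rises were 0.18 and 0.14. The upstream HIST2H2BF probe, 1484 bases away, was too dim to be tested. The octamer of the H2BC18 promoter lies at chr1:149812401-149812430 in GRCh38.p14, another build. How far both probes lie from that gene was not tested.

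HIST2H2BE (H2BC21), known to be made as a polyadenylated mRNA in non-dividing cells, rose only in BT474-Var4. Its downstream probe (chr1:149857064-149857123, minus strand) read -2.02 and -1.96 in Control, -2.31 and -2.09 in BT474-Var1 and -1.33 and -1.44 in BT474-Var4. Its upstream probe (chr1:149858101-149858160) read -1.57 and -1.78, then -1.72 and -1.73, then -2.18 and -2.19. The BT474-Var4 arrays were therefore the highest on the downstream probe and the lowest on the upstream one. The downstream probe rose by 0.60 ± 0.10 in BT474-Var4 (adjusted p = 0.0203; 0.19 with normexp), and the call was lost without Control A (adjusted p = 0.0984), Control B (0.0874), BT474-Var4 A (0.0821) or BT474-Var4 B (0.067). Between the lines the downstream probe differed by 0.81 (adjusted p = 0.00597). The upstream probe fell by 0.51 ± 0.08 (adjusted p = 0.0199).

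In HIST1H2BK and HIST1H2AG the downstream probe did not pass the test against Control. The HIST1H2BK (H2BC12) downstream probe (chr6:27106191-27106250, minus strand) read 5.48 and 5.63 in Control, 5.49 and 5.43 in BT474-Var1 and 5.95 and 5.80 in BT474-Var4, at -0.09 (adjusted p = 0.445) and 0.32 (adjusted p = 0.0625). The upstream HIST1H2BK probe, which lists accessions of 4 H2B genes, read 3.93 and 3.92, then 3.41 and 3.35, then 3.96 and 3.94, and fell by 0.55 ± 0.05 in BT474-Var1 (adjusted p = 0.00508). Both HIST1H2BK probes were higher in BT474-Var4 than in the other variant line, by 0.41 (adjusted p = 0.0225) and 0.57 (adjusted p = 0.0031). The HIST1H2AG downstream probe, 1043 bases beyond the upstream probe that fell by 1.21, differed by 0.41 in BT474-Var4 (adjusted p = 0.0726). Against BT474-Var1 it was higher by 0.43 (adjusted p = 0.048), a call lost without any array but BT474-Var1 B.

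**Figure D3:**
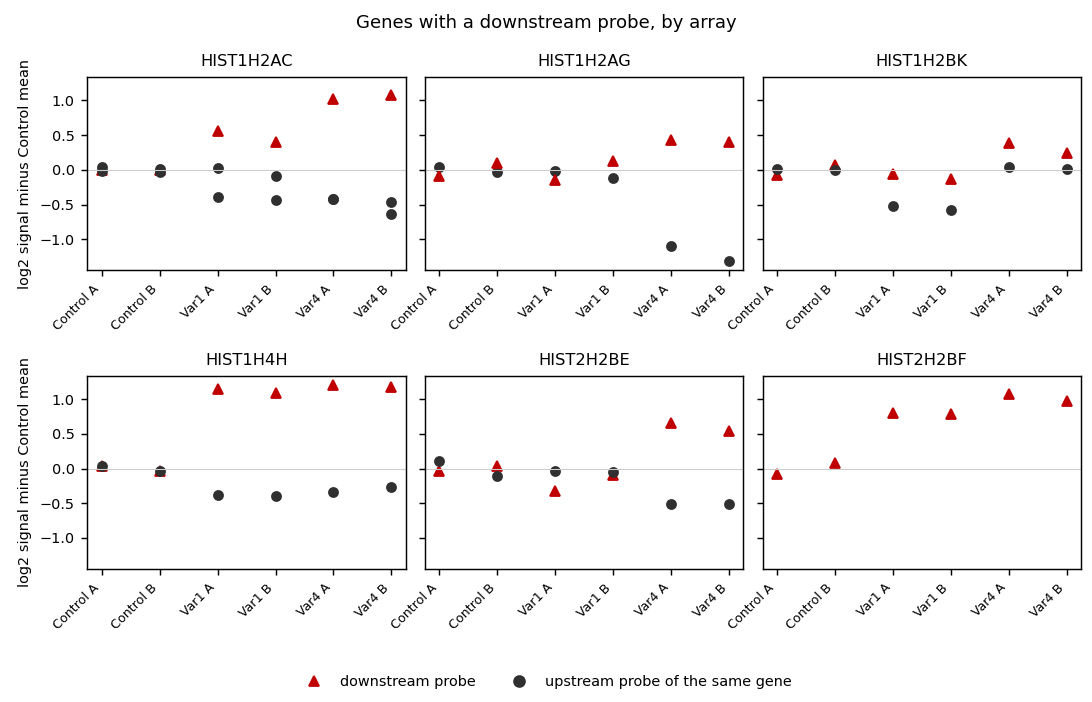
Level (log2) minus the Control mean of the same probe, on each of the 6 arrays, so 0 is that mean. Shown are the downstream probe and the tested upstream probes of the 6 genes with a probe 1000 bases or more downstream. For HIST1H4H the downstream points lie above 0 in BT474-Var1 and BT474-Var4, with mean differences of 1.12 and 1.19. Its upstream points lie below 0 in these lines, with mean differences of -0.39 and -0.30.

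Of the 8 histone cluster genes known to have polyadenylated mRNAs, each represented by its brightest probe, 4 were lower in BT474-Var1 and none higher, with a median of -0.29, where 20.7% of all tested genes were lower. The brightest probe is an upstream one for HIST1H4H and HIST1H2AC, whose downstream probes were called higher in BT474-Var1, by 1.12 and 0.47. For HIST2H2BE and HIST1H2BK it is the downstream probe, so the list mixes both kinds of probe. In BT474-Var4, 2 were lower and 1 higher, with a median of 0.05, where 14.6% of all tested genes were lower and 10.2% higher. Between the lines 4 were higher and none lower, with a median of 0.32 (0.19 with normexp). Against Control, each of the calls of this list in either line was lost without at least 1 of the arrays, and 3 of the 4 between the lines held with any array left out. HIST1H2BC (H2BC4) read 2.96 on both Control arrays, 2.56 and 2.57 in BT474-Var1 and 3.06 and 3.10 in BT474-Var4. HIST1H2BD (H2BC5) read 3.75 and 3.70, then 3.37 and 3.35, then 3.85 and 3.77. Both genes had BT474-Var1 below Control and BT474-Var4 above it. In BT474-Var1 they fell by 0.39 (adjusted p = 0.0076) and 0.37 (adjusted p = 0.0119), in BT474-Var4 they differed by 0.12 (adjusted p = 0.138) and 0.08 (adjusted p = 0.327), and between the lines by 0.52 (adjusted p = 0.00335) and 0.45 (adjusted p = 0.00613). HIST3H2A differed by -0.20 and 0.01 and was called in neither line.

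The lower levels ran along the whole of the large cluster on chromosome 6. HIST1 probes spanned chr6:25726563-27861647, with 56 genes. Of 66 tested HIST1 probes, 41 were lower and 2 higher in BT474-Var1, where 20.3% of all tested probes were lower and 14.1% higher. In BT474-Var4, 38 were lower and 2 higher, where 14.3% and 9.87% of all tested probes were. Split at the widest gap between neighbouring probes, 814.821 kb, the cluster gave 2 stretches. In the first, with 35 genes, the medians were -0.39 and -0.36, and in the second, with 21 genes, -0.36 and -0.42. Between the lines, 13 of 38 tested probes of the first stretch were higher and 10 lower in BT474-Var4. In the second, 10 of 28 were higher and 2 lower, where 20.4% and 20.8% of all tested probes were higher and lower.

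The small clusters held few tested probes. Of 9 tested HIST2 probes on chromosome 1, 1 was lower and 1 higher in BT474-Var1, and 4 were lower and 2 higher in BT474-Var4. Over all tested probes, 20.3% were lower and 14.1% higher in BT474-Var1, and 14.3% and 9.87% in BT474-Var4. The HIST2 shares in BT474-Var1, 11.1% each way, thus lay below those of all probes. The HIST2 members with calls were HIST2H4B, HIST2H3A, HIST2H2BE, HIST2H2BF and HIST2H2AC (H2AC20), the last with -0.33 in BT474-Var4 (adjusted p = 0.0347). Of the 3 HIST3 probes, HIST3H2BB (H2BC26) alone passed, at -0.38 in BT474-Var1 (adjusted p = 0.0432).

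**Figure D4:**
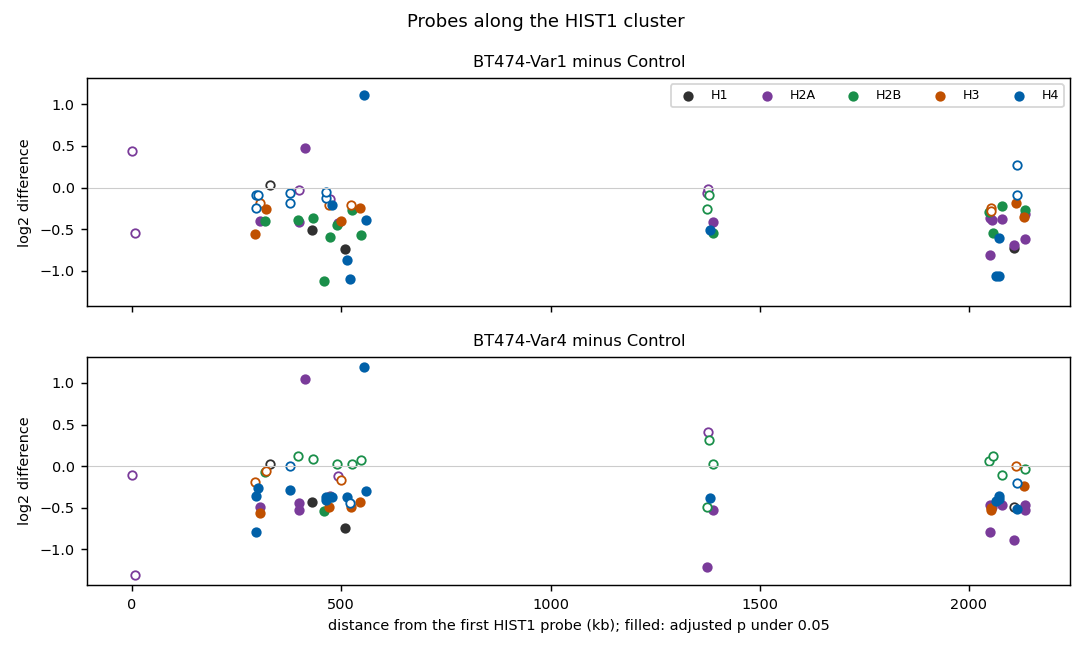
Difference from Control in level (log2) of the HIST1 probes against their distance in kb from the first HIST1 probe, for BT474-Var1 and BT474-Var4. Colours mark the histone type and filled points have an adjusted p under 0.05. Most points of both lines lie below 0 on either side of the widest gap, which is 814.821 kb.

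Genes that act on histone mRNA and protein were described from lists chosen for their roles. Of 24 tested genes of histone transcription and 3′ end processing, 1 was higher and 8 lower in BT474-Var1 and 1 higher and 7 lower in BT474-Var4, with medians of -0.14 and -0.16 (-0.074 in BT474-Var1 under quantile normalisation). Over all tested genes, taken by their brightest probe, 14.2% were higher and 20.7% lower in BT474-Var1, and 10.2% were higher and 14.6% lower in BT474-Var4. SLBP read 4.62 and 4.56 in Control, 4.55 and 4.54 in BT474-Var1 and 4.62 on both BT474-Var4 arrays. SLBP thus showed no difference that passed, at -0.04 (adjusted p = 0.577) and 0.03 (adjusted p = 0.659). NPAT, the coactivator of histone transcription in histone locus bodies, differed by -0.20 in BT474-Var4 (adjusted p = 0.0705) and by -0.27 between the lines (adjusted p = 0.0227). CASP8AP2 (FLASH), its partner in those bodies, differed by -0.17 in BT474-Var1 (adjusted p = 0.0592) and fell by 0.26 in BT474-Var4 (adjusted p = 0.0266).

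The calls that passed in this list included genes with other roles in the cell. CCNE1, the cyclin whose kinase phosphorylates NPAT, fell by 0.54 (BT474-Var1, adjusted p = 0.00723) and 0.40 (BT474-Var4, adjusted p = 0.0191). SYMPK, a scaffold of the cleavage complex that also acts on polyadenylated mRNAs, rose by 0.69 in BT474-Var1 (adjusted p = 0.00374) and differed by -0.85 between BT474-Var4 and BT474-Var1 (adjusted p = 0.00148). ERI1, an exonuclease that trims histone mRNA, fell by 0.55 in BT474-Var4 (adjusted p = 0.015). NCBP1, a subunit of the nuclear cap-binding complex, rose by 0.30 in BT474-Var4 (adjusted p = 0.0252).

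Histone chaperones and S phase genes were also more often lower than higher. Of 25 tested chaperone and import genes, 3 were higher and 11 lower in BT474-Var1, where 14.2% and 20.7% of all tested genes were. In BT474-Var4, 1 was higher and 10 lower, where 10.2% and 14.6% of all tested genes were. The medians were -0.20 and -0.18. Under quantile normalisation 6 were lower in BT474-Var1, with a median of -0.13. NASP, which holds a reserve of H3 and H4, fell by 0.38 (adjusted p = 0.0103) and 0.45 (adjusted p = 0.0106). ASF1B fell by 0.27 (adjusted p = 0.025) and 0.72 (adjusted p = 0.00517), and CHAF1A, the large subunit of the replication-coupled assembly factor CAF-1, by 0.24 (adjusted p = 0.0348) and 0.36 (adjusted p = 0.0186). The largest changes of the list were IPO4 at -0.60 (adjusted p = 0.0063) and UBN1 at 0.35 (adjusted p = 0.024) in BT474-Var1, and HIRA at -0.73 (adjusted p = 0.0425) and NPM2 at 0.57 (adjusted p = 0.00718) in BT474-Var4.

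Of 20 tested S phase genes, 9 were lower in BT474-Var1 and 15 in BT474-Var4, where 20.7% and 14.6% of all tested genes were lower. None was higher in either, where 14.2% and 10.2% of all tested genes were, and the medians were -0.21 and -0.40. Under quantile normalisation 5 were lower and 1 higher in BT474-Var1, with a median of -0.083. GINS2, a subunit of the replicative helicase, fell by 0.99 (adjusted p = 0.00345) and 0.92 (adjusted p = 0.00429). RRM2, which makes deoxynucleotides, fell by 0.73 in BT474-Var4 (adjusted p = 0.0075). PCNA differed by -0.17 (adjusted p = 0.129) and -0.25 (adjusted p = 0.0702), neither of which passed. The S phase values moved in the same direction as the histone medians in both lines, and their part in them was not tested.

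Variant histones, which are encoded outside the clusters and mostly by polyadenylated mRNAs, were tested for 14 of 20 listed genes. In BT474-Var1, 1 was higher and 7 lower, where 14.2% and 20.7% of all tested genes were, with a median of -0.27. In BT474-Var4 none was higher and 5 lower, where 10.2% and 14.6% of all tested genes were. The median there was -0.10 (0.04 under quantile normalisation). H2AFX, which marks DNA breaks, fell by 0.68 (adjusted p = 0.0047) and 0.61 (adjusted p = 0.00721), and H2AFZ by 0.47 in both lines (adjusted p = 0.00611 and 0.00854). CENPA, the H3 variant of centromeres, fell by 0.71 (adjusted p = 0.00899) and 0.47 (adjusted p = 0.0302). H1F0, the linker histone of resting cells, rose by 0.32 in BT474-Var1 (adjusted p = 0.019) and differed by 0.22 in BT474-Var4 (adjusted p = 0.0586). H2AFJ differed by 0.11 in BT474-Var1 and fell by 0.37 in BT474-Var4 (adjusted p = 0.0129). Calls of these 4 lists against Control that held with any array left out numbered 3 of 9, 1 of 14, 2 of 9 and 3 of 8 in BT474-Var1, for transcription and processing, chaperones, S phase genes and variant histones in that order. In BT474-Var4 they numbered 0 of 8, 1 of 11, 2 of 15 and 0 of 5. Among the genes named above, the calls that held were those of SYMPK, CCNE1, POU2F1, IPO4, H2AFX, H2AFZ and GINS2 in BT474-Var1 and of ASF1B and GINS2 in BT474-Var4.

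**Figure D5:**
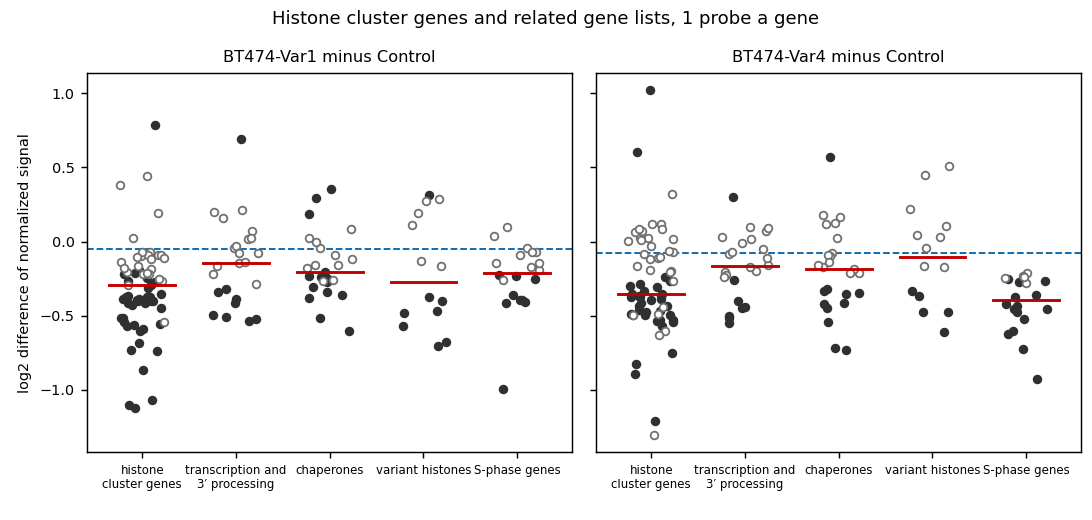
Difference from Control in level (log2) of the tested genes of 5 sets (histone cluster genes, transcription and 3′ end processing, chaperones and import, variant histones, S phase genes) in BT474-Var1 and BT474-Var4. Filled points have an adjusted p under 0.05, red bars are medians and the dashed line is the median over all tested genes. The S phase median was -0.21 (BT474-Var1) and -0.40 (BT474-Var4).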

How the data were processed

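RNA from BT474 lines was hybridised to 1-colour Agilent arrays. The deposited scanner files hold intensity values, made with Feature Extraction 11.5.1.1, and flags per spot. The authors' table holds log2 values after a 75th percentile shift and was used as an alternative. From the processed signal, log2 minus the array's 75th percentile was taken, with control and outlier spots left out and spots of a probe averaged. Testing used limma 3.58.1 on probes that were well above background throughout 1 or more groups (R 4.3.3; lmFit and eBayes over 6 arrays and 3 groups, Benjamini-Hochberg over 31858 probes). The fit was checked on simulated data. Probe positions are those of the files (hg19). The members and lists were chosen with earlier results of these data known. Named genes were, by rule, the brightest gene of each type, the 5 largest called rises and falls per comparison without overlap, members with known polyadenylated mRNAs, with disagreeing probes or outside HIST1 with a call, and chosen regulators with each list's largest calls. The listed variant gene H3F3B had no probe. Alternatives were normexp (offset 50), quantile normalisation, other filters, variance models and tests, a replicate block and leaving out each array. The number of arrays limits the precision.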

Additional observations from a re-analysis of the deposited data

How the results depend on the processing

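In BT474-Var1 against Control, 43 histone probes were lower, 12 with no filter on dim probes, 4 with a 2-fold requirement and 15 to 38 with 1 array left out, while 3 were higher, 6 with normexp, 5 with probes above background on all arrays, 6 with an intensity trend and 1 at 2-fold. In BT474-Var4 against Control, 42 were lower, 3 with no filter, 27 with the methods' one-way test, 1 at 2-fold and 4 to 30 with 1 array left out. In BT474-Var4 against BT474-Var1, 25 were higher, 9 with no filter, 0 at 2-fold and 13 to 17 with 1 array left out, and 15 were lower, 3 with no filter, 25 with the trend, 2 at 2-fold and 4 to 11 with 1 array left out. The count of 0 stands beside 25 by limma without the 2-fold requirement. The cause of these shifts was not tested, beyond the larger number of probes tested without a filter and the smaller number of arrays. The median over genes was -0.32 with normexp, -0.19 with quantile normalisation, -0.27 with no filter and -0.32 to -0.29 with 1 array left out in BT474-Var1, and -0.29, -0.32, -0.30 and -0.36 to -0.32 in BT474-Var4. Between the lines it was 0.082, 0.036 with normexp, -0.029 with quantile normalisation and -0.013 to 0.082 with 1 array left out (-0.013 without BT474-Var4 A), so the median over all types had no stable sign there. HIST1H2AL in BT474-Var1 turned to 1.53 in the deposited table, which keeps an outlier spot. The letters A and B did not pair the arrays (correlations of -0.01, 0.05 and -0.02), and with the replicate block the counts higher and lower were 4 and 37, 4 and 33, and 21 and 12. Slide side as a block could not be fitted and was not run.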
